A study of Mus musculus with 9 samples.

Results

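The genes described here are 10 mouse genes of lipoprotein and lipid handling, chosen by symbol from the deposited expression table, in which all 10 were found among 24532 genes. They are the apolipoprotein genes Apoe and Apoc2, the lipase genes Lpl and Lipa, the phospholipid transfer gene Pltp, the efflux transporter genes Abca1 and Abcg1, the lipid droplet coat gene Plin2, and the fatty acid binding protein genes Fabp4 and Fabp5.

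RNA sequencing was carried out on myeloid mononuclear cells carrying major histocompatibility complex class II (MHCII), sorted from peritoneal washes of C57BL/6 mice at week 8 after birth. Sorting used CD11c, an integrin subunit typical of dendritic cells, and CD115, which binds macrophage colony-stimulating factor. The study separated a pair of subsets within the CD11c+ CD115+ gate, P-IV.I and P-IV.II. No label names a mutation, a transgene or a treatment, and all groups share the strain, the age and the MHCII+ gate.

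P-IV.I cells were MHCII+ CD11c+ CD115+ and carry the label of peritoneal dendritic cells. P-IV.II cells came from the same gate and are labelled small peritoneal macrophages, and the marker that parted them from P-IV.I is not given in the labels. PcDC2 cells were MHCII+ CD11c+ CD115- type 2 dendritic cells, SPM were MHCII+ CD11c- CD115+ small peritoneal macrophages, and PcDC1 cells were MHCII+ CD11c+ CD115- type 1 dendritic cells. P-IV.I, P-IV.II, PcDC2 and SPM had 2 libraries each and PcDC1 had 1, so PcDC1 entered no test. The labels do not say that the libraries of a group came from separate animals or sorts, and p-values therefore measure only the spread between these samples, which may be technical.

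Macrophages and dendritic cells take up lipid from lipoproteins and from dying cells, and small peritoneal macrophages share the peritoneal cavity with fat depots. Lipoprotein lipase frees fatty acids from lipoprotein triglyceride outside the cell, and lysosomal acid lipase frees cholesterol and fatty acids from lipid that has been taken in. The freed lipid is carried in the cytosol by fatty acid binding proteins, stored in droplets coated by perilipins, or passed out by ABC transporters to apolipoproteins such as apolipoprotein E. Macrophages are a known source of apolipoprotein E, and many of these genes are known targets of the nuclear receptors LXR and PPAR gamma.

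Expression is given as FPKM, a fragment level corrected for transcript length and for library size, so that genes can be set side by side. FPKM totals ranged between 439597 and 647385 per library, 9115 to 9847 genes reached an FPKM of 1, and the read depth is unknown. The labels were set against lists of marker genes. The summed FPKM of 12 small peritoneal macrophage markers was 1232 and 1614 in P-IV.I, 16222 and 13353 in P-IV.II, 255 and 320 in PcDC2, 27641 and 14223 in SPM, and 268 in PcDC1. The sum over 11 type 2 dendritic cell markers was 3982 and 3657 in P-IV.I, 1621 and 1207 in P-IV.II, 2906 and 3278 in PcDC2, 893 and 804 in SPM, and 275 in PcDC1. The sum over 9 type 1 dendritic cell markers was 162 and 242 in P-IV.I, 157 and 108 in P-IV.II, 169 and 95.1 in PcDC2, 124 and 74.7 in SPM, and 2220 in PcDC1. Adipose tissue also expresses several of the 10 genes: the adipocyte markers Adipoq, Plin1, Cidec, Lep and Car3 were listed at 0 in every library. The 10 adipocyte markers together came to between 2.62 and 26.1 FPKM, mostly from Lipe. The endothelial markers Gpihbp1, Tek and Emcn and the mesothelial markers Msln and Wt1 were also listed at 0 throughout. The 10 endothelial markers summed to 4.72 and 10.1 FPKM in P-IV.I, 1.51 and 1.8 in P-IV.II, 13.7 and 9.16 in PcDC2, 1.01 and 1.43 in SPM, and 4.48 in PcDC1, mostly from Pecam1 in the replicated groups. The mesothelial sum was at most 0.578 FPKM.

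Together the 10 genes made up 0.316% and 0.333% of all FPKM in P-IV.I, 0.883% and 0.637% in P-IV.II, 0.131% and 0.148% in PcDC2, 1.59% and 1.26% in SPM, and 0.0471% in PcDC1. Most of this was Pltp in P-IV.I, P-IV.II and PcDC2, Pltp and Apoe in SPM, and Plin2 and Lipa in PcDC1. The genes fell into 3 kinds of pattern by level: Lpl, Pltp and Plin2 were high in SPM and P-IV.II, Apoe, Apoc2 and Abca1 were highest in SPM with P-IV.II far below, and Abcg1, Fabp4 and Fabp5 followed neither order. Over the replicated groups the Lipa means ran in the same order as those of Pltp and Plin2, at smaller distances.

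**Figure D1:**
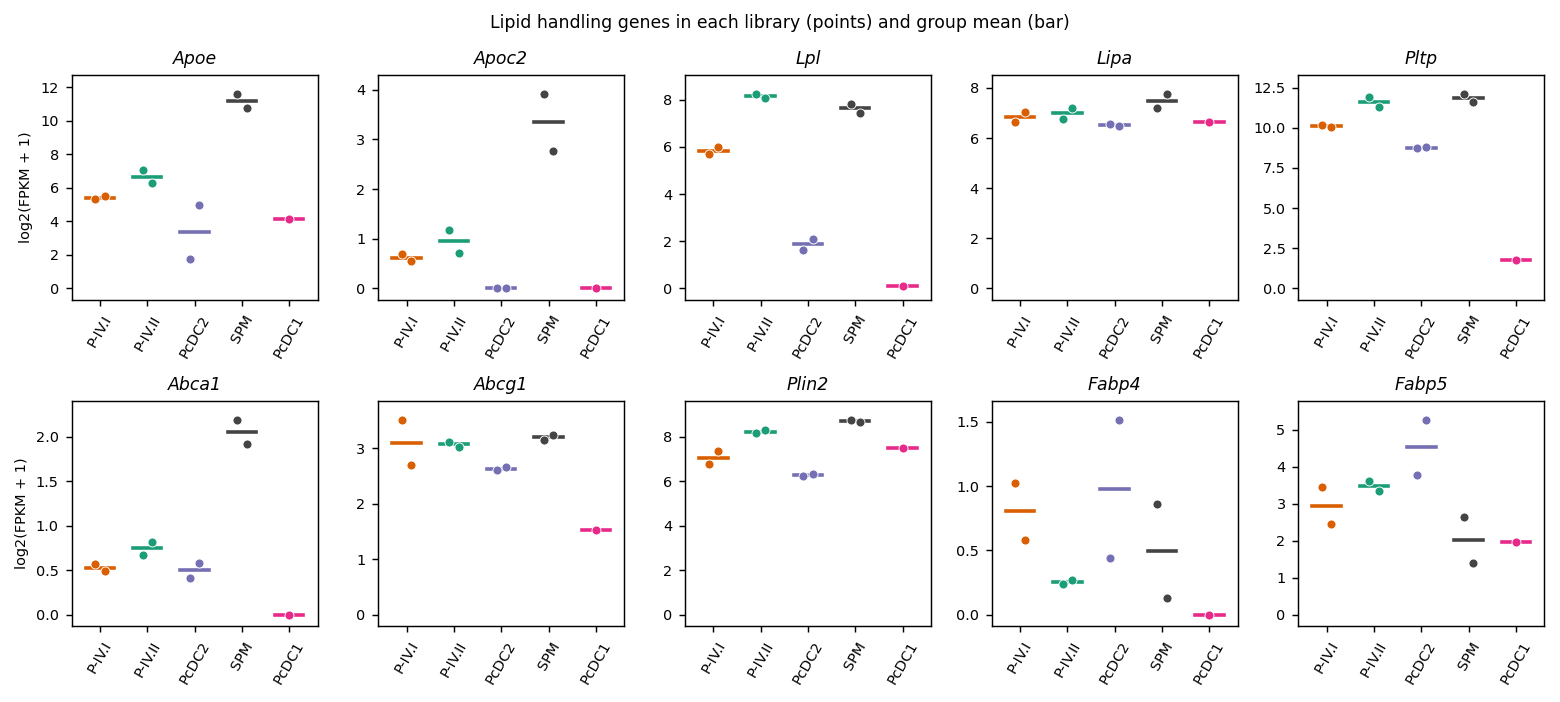
Level of each of the 10 genes as log2(FPKM + 1), with 1 point per library, a bar at each group's mean and a scale of its own for each gene. Apoe stood at 3110.0 and 1746 FPKM in SPM and at most 131 FPKM in every other library, whereas Lpl lay between 172 and 301 FPKM in the P-IV.II and SPM libraries alike.

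Apoe (Entrez 11816, chr7:19696244-19701310 in GRCm38.p6) encodes apolipoprotein E, which carries lipid between cells and binds receptors of the LDL receptor family. It had 39.4 and 44.8 FPKM in P-IV.I, 131 and 78.2 FPKM in P-IV.II, 2.38 and 30.5 FPKM in PcDC2, 3110.0 and 1746 FPKM in SPM, and 16.9 FPKM in PcDC1. Both SPM libraries stood apart from all others, both P-IV.II libraries lay above both P-IV.I libraries, and PcDC1 fell inside the PcDC2 range. By rank within a library Apoe was the 15th or 19th highest gene in SPM, between the 512th and 897th in P-IV.II and between the 1626th and 1887th in P-IV.I. The PcDC2 libraries differed 12.8-fold from each other, and this wide spread entered the error of every Apoe comparison. Macrophage complement genes moved with it in PcDC2: C1qb had 0.406 FPKM in replicate 1 and 6.34 FPKM in replicate 2, and C1qa had 0.122 and 3.13 FPKM. Other macrophage markers moved less or not at all, with Csf1r at 5.08 and 6.86 FPKM, Mrc1 at 16.1 and 17.5 FPKM and Mertk at 0 in both. Fcgr1 went the other way, at 0.102 FPKM and 0. The part of any of these in the Apoe values was not tested. In bulk samples of this kind, fewer cells of a type and less RNA per cell cannot be told apart.

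Apoc2 (Entrez 11813, chr7:19671579-19677941) encodes apolipoprotein C-II, the activating cofactor of lipoprotein lipase. It lies in the same apolipoprotein cluster as Apoe, with Apoc4 and Apoc1 between them. It had 0.619 and 0.458 FPKM in P-IV.I, 1.27 and 0.645 FPKM in P-IV.II, 14.1 and 5.85 FPKM in SPM, and was listed at 0 in both PcDC2 libraries and in PcDC1. Both SPM libraries stood above all others, and both P-IV.II libraries lay above both P-IV.I libraries at far lower levels. The neighbouring apolipoprotein genes Apoc1 and Apoc4 were close to silent: Apoc1 was listed at 0 outside SPM, where it had 0.573 and 0.126 FPKM, and Apoc4 was listed at 0 in all but SPM replicate 2, at 0.0296 FPKM. The other neighbours, Tomm40 of the mitochondrial import pore and Clptm1, were expressed in every library, at 35.2 to 56.1 FPKM for Tomm40 and 18.5 to 117 FPKM for Clptm1. A readthrough transcript that overlaps Apoc2 and Apoc4 is annotated in GENCODE, and how its reads were divided is not given in the sources used here, so the level of Apoc2 is uncertain.

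Lpl (Entrez 16956, chr8:68880555-68906932) encodes lipoprotein lipase, the secreted enzyme that hydrolyses lipoprotein triglyceride. It had 50.6 and 61.7 FPKM in P-IV.I, 301 and 267 FPKM in P-IV.II, 2.12 and 3.26 FPKM in PcDC2, 226 and 172 FPKM in SPM, and 0.0699 FPKM in PcDC1. No library of any group overlapped that of another, and the order ran P-IV.II, SPM, P-IV.I, PcDC2, PcDC1. Within each replicated group the libraries lay close together. The distance between P-IV.II and SPM at the top of the order did not pass the test (adjusted p = 0.532), while those between SPM and P-IV.I and between P-IV.I and PcDC2 did, as given below with their sizes.

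Lipa (Entrez 16889, chr19:34492316-34527474) encodes lysosomal acid lipase, which hydrolyses cholesteryl esters and triglycerides inside lysosomes. It had 97.8 and 129 FPKM in P-IV.I, 107 and 147 FPKM in P-IV.II, 93.3 and 88.3 FPKM in PcDC2, 144 and 216 FPKM in SPM, and 99.5 FPKM in PcDC1. Both PcDC2 libraries lay below all others, the P-IV.I and P-IV.II libraries interleaved, and P-IV.II replicate 2 lay above SPM replicate 1. None of the 6 pairwise comparisons of Lipa passed the test, the closest being PcDC2 minus SPM at an adjusted p of 0.0558. There Lipa averaged 90.8 ± 3.53 FPKM in PcDC2 and 180.1 ± 50.5 FPKM in SPM, 1.98-fold lower by means without overlap of libraries, with a 95% interval of -1.63 to -0.28 on the log2 scale. That value passed under median-ratio rescaling (0.0367), and without SPM replicate 1 (0.0357), within a range of 0.019 to 0.241 over all alternatives.

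Pltp (Entrez 18830, chr2:164839518-164857708) encodes phospholipid transfer protein, a secreted protein that moves phospholipid between lipoproteins. It was the most abundant of the 10 genes in every replicated group, with 1176 and 1053 FPKM in P-IV.I, 3944 and 2529 FPKM in P-IV.II, 422 and 449 FPKM in PcDC2, and 4400.2 and 3093 FPKM in SPM. PcDC1 was the exception, with 2.41 FPKM. The P-IV.II and SPM libraries overlapped, both lay above both P-IV.I libraries, and these lay above PcDC2. By rank Pltp was the 31st and 35th highest gene in P-IV.I, the 13th in both P-IV.II libraries, the 115th in both PcDC2 libraries, and the 10th and 12th in SPM.

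Abca1 (Entrez 11303, chr4:53030789-53159988) encodes the transporter that passes cholesterol and phospholipid to lipid-poor apolipoproteins. It was a low gene with 0.483 and 0.401 FPKM in P-IV.I, 0.594 and 0.763 FPKM in P-IV.II, 0.336 and 0.497 FPKM in PcDC2, and 3.54 and 2.77 FPKM in SPM, and it was listed at 0 in PcDC1. Only the SPM libraries reached 1 FPKM, so Abca1 entered the test through SPM alone, and a difference from SPM was built into its selection. Abcg1 (Entrez 11307, chr17:31057694-31117984), whose product passes cholesterol to high density lipoprotein, had 10.3 and 5.45 FPKM in P-IV.I, 7.67 and 7.10 FPKM in P-IV.II, 5.05 and 5.29 FPKM in PcDC2, 7.87 and 8.47 FPKM in SPM, and 1.89 FPKM in PcDC1. Its replicated groups averaged between 5.17 and 8.17 FPKM, and no pairwise comparison of Abcg1 passed.

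Plin2 (Entrez 11520, chr4:86626910-86670217) encodes perilipin 2, the coat protein of lipid droplets in cells other than adipocytes. It had 108 and 165 FPKM in P-IV.I, 286 and 313 FPKM in P-IV.II, 74.2 and 78.7 FPKM in PcDC2, 427 and 411 FPKM in SPM, and 181 FPKM in PcDC1. The replicated groups did not overlap, in the order SPM, P-IV.II, P-IV.I, PcDC2. PcDC1 lay between P-IV.II and P-IV.I, unlike for Lpl and Pltp, where it was the lowest library of all.

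Fabp4 (Entrez 11770, chr3:10204342-10208616) and Fabp5 (Entrez 16592, chr3:10012585-10016610) encode cytosolic carriers of fatty acids and lie in the same cluster of binding protein genes. Fabp4 stayed near the detection limit, with 1.04 and 0.492 FPKM in P-IV.I, 0.181 and 0.207 FPKM in P-IV.II, 0.358 and 1.85 FPKM in PcDC2, 0.819 and 0.0958 FPKM in SPM, and 0 in PcDC1. Fabp5 had 9.93 and 4.49 FPKM in P-IV.I, 11.4 and 9.23 FPKM in P-IV.II, 12.8 and 37.3 FPKM in PcDC2, 5.24 and 1.65 FPKM in SPM, and 2.88 FPKM in PcDC1. Both PcDC2 libraries lay above all others, and the P-IV.I libraries overlapped those of P-IV.II and those of SPM. The cluster members Fabp9, Fabp12 and Pmp2 were listed at 0 in every library. Fabp5 has a pseudogene copy of similar sequence in the mouse genome, so its level could hold reads from that copy.

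Promoters are shown for a pair of genes that passed in the same 4 pairwise comparisons, Pltp and Plin2, and for a pair whose SPM libraries lay above all others, Apoc2 and Abca1, so that the letters around their start sites can be compared. They come from the RefSeq promoter table of GRCm38.p6, which held 8 promoters for 6 of the 10 genes (Abca1, Apoc2, Apoe, Lipa, Plin2 and Pltp), each with 250 bases before and 50 after the start site, on the minus strand for all 8. Capitals mark matches, on either strand, to the nuclear receptor half-site AGGTCA, the E-box CACGTG, the TATA box TATAAA, the CCAAT box CCAAT and the GC box GGGCGG.
Pltp, chr2:164857659-164857958, minus strand: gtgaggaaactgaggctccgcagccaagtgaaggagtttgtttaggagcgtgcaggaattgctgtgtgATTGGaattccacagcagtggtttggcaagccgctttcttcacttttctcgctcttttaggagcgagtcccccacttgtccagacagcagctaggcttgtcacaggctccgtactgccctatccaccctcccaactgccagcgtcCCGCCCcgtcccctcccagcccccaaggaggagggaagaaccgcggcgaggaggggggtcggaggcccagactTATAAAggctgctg
Plin2, chr4:86670010-86670309, minus strand: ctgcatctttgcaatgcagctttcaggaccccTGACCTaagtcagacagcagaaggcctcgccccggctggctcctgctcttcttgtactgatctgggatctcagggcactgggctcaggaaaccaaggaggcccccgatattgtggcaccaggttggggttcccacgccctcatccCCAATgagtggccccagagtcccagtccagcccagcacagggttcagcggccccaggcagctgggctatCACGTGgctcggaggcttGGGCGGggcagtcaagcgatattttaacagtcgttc
Apoc2, chr7:19677892-19678191, minus strand: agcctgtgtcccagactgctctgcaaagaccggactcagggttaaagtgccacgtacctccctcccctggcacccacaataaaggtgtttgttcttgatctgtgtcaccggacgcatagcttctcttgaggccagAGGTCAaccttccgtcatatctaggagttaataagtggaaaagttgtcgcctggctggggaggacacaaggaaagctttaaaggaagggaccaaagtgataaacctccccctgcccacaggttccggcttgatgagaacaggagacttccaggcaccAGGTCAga
Abca1, chr4:53159846-53160145, minus strand: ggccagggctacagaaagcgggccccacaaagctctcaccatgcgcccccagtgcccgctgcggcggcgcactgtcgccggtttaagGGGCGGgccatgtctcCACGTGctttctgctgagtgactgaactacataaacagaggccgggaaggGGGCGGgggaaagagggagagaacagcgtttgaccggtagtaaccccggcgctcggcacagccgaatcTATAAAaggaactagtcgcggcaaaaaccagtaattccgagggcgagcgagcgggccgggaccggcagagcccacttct

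Apoc2 held the half-site AGGTCA 115 bases before and 42 after the start site, and Plin2 held it on the opposite strand 218 bases before the start. This half-site was in 16.3% of all 32851 promoters listed. Its direct repeats with 1 base between (DR1) or 4 bases between (DR4), which contain the half-site, were in 0.0396% and 0.0152% of all promoters and in none of the 8. The PU.1 core GAGGAAGT, in 3.20% of all promoters, was also in none of the 8. The E-box, in 7.15% of all promoters, lay in Abca1 and Plin2. The TATA box (13.6% of all promoters) lay in 4 of the 8, the CCAAT box (37.4%) in 3 and the GC box (35.7%) in 4, and no matches overlapped in the promoters printed. Of the 3 start sites listed for Apoe, only 1 had any match, to the TATA box. The pair of Pltp and Plin2 shared a CCAAT box and a GC box, and the pair of Apoc2 and Abca1 shared no motif searched.

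The first comparison, P-IV.I minus P-IV.II, asked how the subsets of the CD11c+ CD115+ gate differ. Lpl, Pltp and Plin2 were lower in P-IV.I, and the other 7 genes did not pass. Lpl averaged 56.2 ± 7.91 FPKM in P-IV.I and 284 ± 23.7 FPKM in P-IV.II (SD, n = 2 each), 5.06-fold lower, with a log2 fold change of -2.32 ± 0.26 (SE) and an adjusted p of 0.00211 by limma with Benjamini-Hochberg adjustment over all 10526 genes tested. Every fold change from this fit is on the log2(FPKM + 1) scale, which understates the change of low genes. Pltp averaged 1115 ± 86.9 FPKM in P-IV.I and 3236 ± 1001 FPKM in P-IV.II, a log2 fold change of -1.50 ± 0.31 (adjusted p = 0.0224). Plin2 averaged 136 ± 40.3 FPKM in P-IV.I and 299.8 ± 19.2 FPKM in P-IV.II, at -1.16 ± 0.26 (adjusted p = 0.0300). Apoe, at -1.25 ± 0.88, did not pass although its libraries did not overlap (adjusted p = 0.39), and Abcg1 was at 0.03 ± 0.30 (adjusted p = 0.964). Nor did Apoc2 at -0.33 ± 0.36 (0.591), Lipa at -0.16 ± 0.29 (0.762), Abca1 at -0.22 ± 0.20 (0.524), Fabp4 at 0.55 ± 0.38 (0.391) or Fabp5 at -0.54 ± 0.58 (0.589).

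In P-IV.I against P-IV.II, 9.61% of all tested genes passed, 3.11% as lower and 6.51% as higher, beside 3 lower and 0 higher of the 10 lipid genes by limma, with 3 of 10 at an unadjusted p under 0.05. The split of all genes, 685 higher and 327 lower, depended on the scaling, since median-ratio rescaling gave 475 higher and 494 lower. The median log2 fold change was -0.43 over the 10 genes and 0.19 over all tested genes, and under that rescaling the median of all genes was 0.00. The Lpl call held in all 18 alternatives run, with adjusted p between 0.00152 and 0.0215. The calls of Pltp and Plin2 were less secure. Pltp lost its call without P-IV.I replicate 1 (adjusted p = 0.0943), P-IV.I replicate 2 (0.105), P-IV.II replicate 1 (0.111), PcDC2 replicate 1 (0.0555) or PcDC2 replicate 2 (0.0547), in the fit on these groups alone (0.065) and with a filter of any value above 0 (0.0541), within a range of 0.0112 to 0.111. Plin2 lost its call without P-IV.I replicate 1 (0.165), P-IV.II replicate 1 (0.0943), P-IV.II replicate 2 (0.158), PcDC2 replicate 1 (0.0705) or PcDC2 replicate 2 (0.0702), in the fit on these groups alone (0.0858) and under quantile normalization (0.0531), within a range of 0.0155 to 0.165. The macrophage marker sum given above was also lower in both P-IV.I libraries than in either P-IV.II library, and its part in these differences was not tested.

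**Figure D2:**
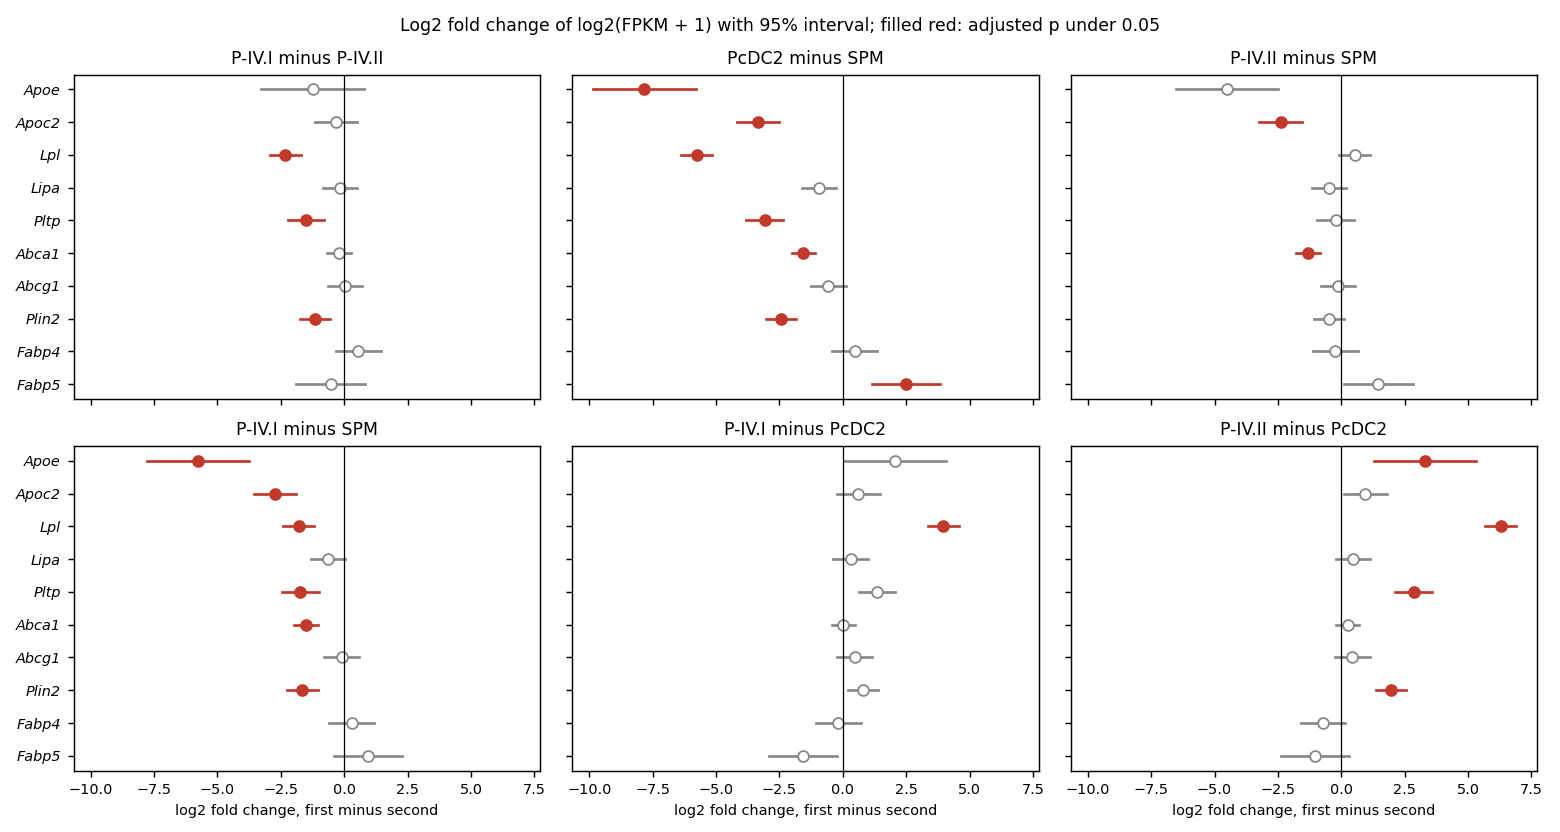
Log2 fold change of each of the 10 genes on the log2(FPKM + 1) scale in the 6 pairwise comparisons, with points for the estimate, bars for its 95% interval, and filled red points for an adjusted p under 0.05. The Lpl change was -2.32 with P-IV.I set against P-IV.II, -5.76 for PcDC2 minus SPM and 0.52 for P-IV.II minus SPM.

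Between the groups outside the double-positive gate, PcDC2 minus SPM, Apoe, Apoc2, Lpl, Pltp and Plin2 were lower in PcDC2 and Fabp5 was higher. Abca1 also passed as lower, but its differences from SPM here and below are a description, since it entered the test through SPM alone. Apoc2 reached 1 FPKM only in the SPM libraries and in P-IV.II replicate 1, so without SPM it would not have been tested. Its differences from SPM here and below are therefore a description too. Of all tested genes 19.7% passed, 8.46% as lower and 11.2% as higher, with 1178 higher and 891 lower calls that became 983 higher and 1064 lower under median-ratio rescaling, and the median was -1.99 over the 10 genes and 0.13 over all tested genes. Apoe averaged 16.4 ± 19.9 FPKM in PcDC2 and 2428 ± 965 FPKM in SPM, 148-fold lower, at -7.82 ± 0.88 on the log2 scale (adjusted p = 0.000538). Lpl averaged 2.69 ± 0.809 FPKM in PcDC2 and 199 ± 37.9 FPKM in SPM, 73.9-fold lower, at -5.76 ± 0.26 (adjusted p = 1.7e-05). Apoc2 changed by -3.35 ± 0.36 (adjusted p = 0.000457), Pltp by -3.08 ± 0.31 (0.000328), Plin2 by -2.44 ± 0.26 (0.000426) and Abca1 by -1.55 ± 0.20 (0.00128), with no overlap between libraries for any of them. For Apoc2, listed at 0 in PcDC2, the size depends on the pseudocount and is no bound on the fold.

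Fabp5 went the other way, averaging 25.1 ± 17.3 FPKM in PcDC2 and 3.45 ± 2.54 FPKM in SPM, at 2.50 ± 0.58 (adjusted p = 0.0195). This call rested on replicate 2 of each group: it was 1.76 with an adjusted p of 0.134 without PcDC2 replicate 2, and 1.88 with an adjusted p of 0.107 without SPM replicate 2. Lipa at -0.95 ± 0.29 (adjusted p = 0.0558), Abcg1 at -0.57 ± 0.30 (0.227) and Fabp4 at 0.48 ± 0.38 (0.434) did not pass. The lower calls of Apoe, Apoc2, Lpl, Pltp and Plin2 held in every alternative run. The lower call of Abca1 held in the 17 alternatives that tested it, since the alternative with a higher FPKM filter left it out. The macrophage marker sum was likewise lower in PcDC2 and P-IV.I than in SPM, with no overlap of libraries. It was higher in P-IV.I and P-IV.II than in PcDC2, also without overlap, while its P-IV.II and SPM libraries overlapped. Most of the sum was Retnla in P-IV.II (13579 and 10979 FPKM) and in SPM (19200 and 7951 FPKM). Every other marker of that list was lower in both P-IV.II libraries than in either SPM library. For example, C1qa had 196 and 103 FPKM in P-IV.II and 1232 and 612 FPKM in SPM. The part of these markers in the results here and below was not tested.

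P-IV.II minus SPM compared groups that both carry the macrophage label and that differ in CD11c. Most of the lipid genes did not pass here, while Apoc2 and Abca1 passed as lower in P-IV.II, each with the limit given above. Of all tested genes 1.14% passed, 0.903% as lower and 0.238% as higher, beside 2 lower and 0 higher of the 10 by limma, with 4 of 10 at an unadjusted p under 0.05; the median was -0.36 over the 10 genes and -0.06 over all genes. Apoc2 averaged 0.959 ± 0.443 FPKM in P-IV.II and 9.98 ± 5.83 FPKM in SPM, at -2.40 ± 0.36 (adjusted p = 0.0279). Abca1 averaged 0.678 ± 0.120 FPKM in P-IV.II and 3.16 ± 0.548 FPKM in SPM, at -1.30 ± 0.20 (adjusted p = 0.0292). Both calls were lost in 10 of the alternatives, with adjusted p up to 0.261 for Apoc2 and 0.232 for Abca1, among them the fits that left out either P-IV.II library, either P-IV.I library or either PcDC2 library. Leaving out SPM replicate 1 also ended both calls (0.0648 for Apoc2 and 0.132 for Abca1), and leaving out SPM replicate 2 ended that of Abca1 (0.0948).

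Apoe showed the largest difference of the 10 genes between P-IV.II and SPM and still did not pass. It averaged 104 ± 37.1 FPKM in P-IV.II, 23.2-fold below its SPM mean, at -4.51 ± 0.88, with a 95% interval of -6.53 to -2.50 and an adjusted p of 0.0629. The estimate of spread is shared with PcDC2, and without PcDC2 replicate 1 or without PcDC2 replicate 2 the adjusted p was 0.00622 and the SE 0.39. In the fit on these groups alone, which leaves out both, the SE was 0.44 and the adjusted p 0.0715. With a replicate block the adjusted p was 0.0488. Over all alternatives it ran between 0.00622 and 0.204, and with a pseudocount of 5 it was 0.0205. The lipase and transfer genes gave another picture. Lpl was at 0.52 ± 0.26 with an interval of -0.09 to 1.13 (adjusted p = 0.532), Pltp at -0.22 ± 0.31 with an interval of -0.94 to 0.49 (0.802) and Plin2 at -0.48 ± 0.26 with an interval of -1.09 to 0.12 (0.551). Lipa at -0.49 ± 0.29 (0.587), Abcg1 at -0.13 ± 0.30 (0.885), Fabp4 at -0.24 ± 0.38 (0.829) and Fabp5 at 1.47 ± 0.58 (0.407) did not pass either. The intervals of Lpl, Pltp and Plin2 leave room for differences of up to about 1 on the log2 scale and do not show that the groups are alike.

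P-IV.I minus SPM shares its SPM libraries with both comparisons against SPM above. Apoe, Lpl, Pltp and Plin2 were lower in P-IV.I, and Apoc2 and Abca1 passed as lower with the same limit as above. By limma, 0 of the 10 genes were higher. Of all tested genes 11.0% passed, 4.58% as lower and 6.41% as higher, with 675 higher and 482 lower calls that became 519 higher and 623 lower under median-ratio rescaling. The median was -1.58 over the 10 genes and 0.12 over all genes, and 6 of 10 were at an unadjusted p under 0.05. Apoe averaged 42.1 ± 3.84 FPKM in P-IV.I, 57.7-fold below SPM, at -5.76 ± 0.88 (adjusted p = 0.00491), and Apoc2 was at -2.73 ± 0.36 (0.00268). Lpl, 3.54-fold lower in P-IV.I than in SPM, was at -1.80 ± 0.26 (0.0042), Pltp at -1.73 ± 0.31 (0.00994), Plin2 at -1.65 ± 0.26 (0.00578) and Abca1 at -1.52 ± 0.20 (0.00272). The Pltp call was lost without P-IV.I replicate 1 (a change of -1.81) or P-IV.I replicate 2 (-1.65). Those of Apoe, Apoc2, Lpl and Plin2 held in every alternative run. That of Abca1 held in the 17 alternatives that tested it, since a filter of FPKM 5 left it out. Lipa at -0.65 ± 0.29 (0.226), Abcg1 at -0.10 ± 0.30 (0.884), Fabp4 at 0.30 ± 0.38 (0.697) and Fabp5 at 0.93 ± 0.58 (0.399) did not pass.

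P-IV.I minus PcDC2 compared groups that both carry a dendritic cell label and differ in CD115. Lpl was higher in P-IV.I, and no other gene of the list passed. Of all tested genes 0.732% passed, 0.599% as higher and 0.133% as lower, beside 1 higher and 0 lower of the 10 by limma, with 5 of 10 at an unadjusted p under 0.05. Lpl in P-IV.I was 20.9-fold above its PcDC2 mean, at 3.96 ± 0.26 (adjusted p = 0.000658), and this call held in every alternative run. Pltp was 2.56-fold higher by means without overlap of libraries, at 1.35 ± 0.31, and did not pass (adjusted p = 0.135), except under quantile normalization (0.0374). Apoe at 2.06 ± 0.88 (0.695), Plin2 at 0.79 ± 0.26 (0.413) and Fabp5 at -1.57 ± 0.58 (0.564) did not pass either. Nor did Apoc2 at 0.62 ± 0.36 (0.945), Abcg1 at 0.47 ± 0.30 (0.999), Lipa at 0.31 ± 0.29, Fabp4 at -0.17 ± 0.38 or Abca1 at 0.03 ± 0.20, the last 3 with an adjusted p of 1. The median was 0.54 over the 10 genes and -0.01 over all genes.

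P-IV.II minus PcDC2 gave 4 genes higher in P-IV.II and 0 lower by limma, with 5 of 10 at an unadjusted p under 0.05. Of all tested genes 20.7% passed, 7.52% as higher and 13.2% as lower, and the 792 higher and 1391 lower calls became 1025 higher and 1045 lower under median-ratio rescaling. Lpl was 106-fold higher in P-IV.II, at 6.29 ± 0.26 (adjusted p = 1.7e-05), Pltp 7.43-fold higher at 2.86 ± 0.31 (0.000583) and Plin2 3.92-fold higher at 1.96 ± 0.26 (0.00163). These 3 held in every alternative run. Apoe was 6.36-fold higher by means, at 3.31 ± 0.88 (adjusted p = 0.0323). It no longer passed when P-IV.II replicate 1 (0.111) or P-IV.II replicate 2 (0.0777) was left out, in the fit on these groups alone (0.0628), or with a filter of any value above 0 (0.0715). Leaving out PcDC2 replicate 1 gave a change of 1.70 and an adjusted p of 0.0668. Apoc2, at 0.95 ± 0.36, did not pass (adjusted p = 0.102), but passed with a pseudocount of 0.1 (0.00506), in the fit on these groups alone (0.0375), and without SPM replicate 1 (0.03) or SPM replicate 2 (0.0308). Lipa at 0.46 ± 0.29 (0.298), Abca1 at 0.25 ± 0.20 (0.433), Abcg1 at 0.44 ± 0.30 (0.334), Fabp4 at -0.72 ± 0.38 (0.223) and Fabp5 at -1.03 ± 0.58 (0.249) did not pass. The median was 0.71 over the 10 genes and -0.17 over all genes.

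The difference within the double-positive gate was set against the difference outside it by an interaction, P-IV.I minus P-IV.II less PcDC2 minus SPM, contrasts that share no library. The changes in Lpl and Apoc2 were smaller inside the gate than outside it, and the other 8 genes did not pass. For Apoc2 the limit given above holds here too, since its difference from SPM is part of the contrast. For Lpl the changes were -2.32 inside and -5.76 outside the gate, a difference of 3.44 ± 0.37 (adjusted p = 0.00749 by limma). For Apoc2 they were -0.33 and -3.35, a difference of 3.02 ± 0.51 (adjusted p = 0.0415), whose call was lost in 9 of 18 alternatives, among them the fits without either P-IV.I, P-IV.II or PcDC2 library (0.0924 to 0.172). Of all tested genes 1.11% passed this test, 1.01% as higher and 0.105% as lower, beside 2 higher and 0 lower of the 10, with 7 of 10 at an unadjusted p under 0.05. Apoe, at 6.57 ± 1.24, missed the threshold (adjusted p = 0.0559) and passed without PcDC2 replicate 1 (0.0436) or PcDC2 replicate 2 (0.014). Apoe also passed with a replicate block (0.0408). The other differences of changes were 1.58 ± 0.44 for Pltp (0.205), 1.33 ± 0.29 for Abca1 (0.095), 1.28 ± 0.37 for Plin2 (0.225), -3.04 ± 0.83 for Fabp5 (0.188), 0.79 ± 0.41 for Lipa (0.589), 0.60 ± 0.42 for Abcg1 (0.685) and 0.07 ± 0.54 for Fabp4 (0.975).

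The 7 genes that passed between PcDC2 and SPM were also placed on a line of log2(FPKM + 1) on which the SPM mean is 0 and the PcDC2 mean is 1, as a description with no test. The P-IV.II mean lay at -0.091 for Lpl, 0.073 for Pltp and 0.198 for Plin2, close to SPM. It lay further from SPM at 0.577 for Apoe, 0.716 for Apoc2 and 0.842 for Abca1. The P-IV.I mean lay further towards PcDC2 for each of these 6, at 0.312 for Lpl, 0.561 for Pltp, 0.675 for Plin2, 0.736 for Apoe, 0.815 for Apoc2 and 0.982 for Abca1. For Fabp5 the order was the other way, with P-IV.I at 0.372 and P-IV.II at 0.587, though the P-IV.I libraries lay at 0.571 and 0.173. Positions of Apoc2, listed at 0 in PcDC2, depend on the pseudocount. Those of Apoe depend on PcDC2 libraries that lay apart, at 2.38 and 30.5 FPKM. Abca1 entered the test through SPM alone, and its P-IV.II and PcDC2 libraries all lay under the pseudocount of 1 FPKM. A place of Abca1 near PcDC2 was thus largely built into its selection. Apoc2, Apoe and Abca1 are therefore not placed firmly on the PcDC2 side in P-IV.II.

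**Figure D3:**
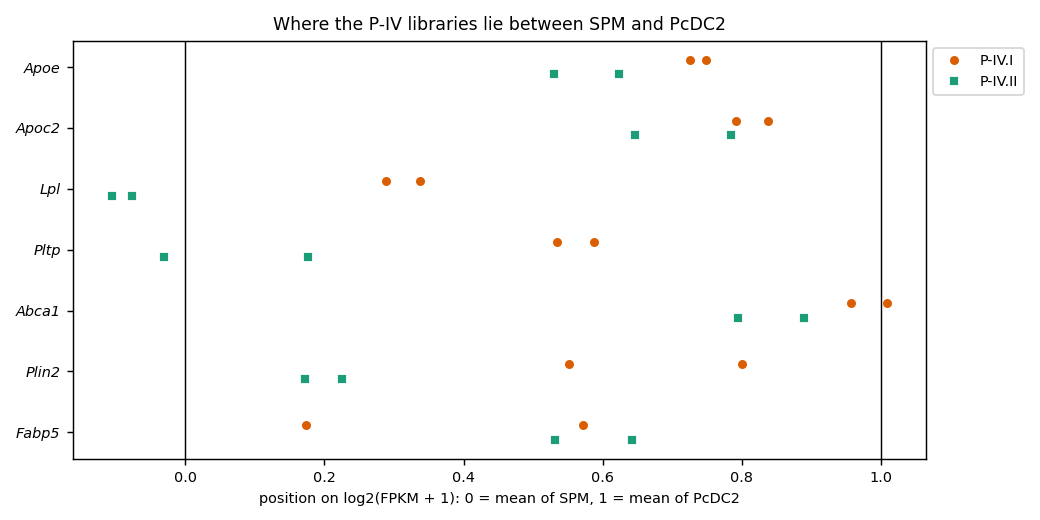
Position of each P-IV.I and P-IV.II library between the SPM mean (0) and the PcDC2 mean (1) on log2(FPKM + 1), for the 7 genes that passed between those groups, with 1 point per library. The P-IV.II libraries lay near 0 for Lpl, at -0.105 and -0.076, and nearer 1 for Abca1, at 0.889 and 0.795. Abca1 entered the test through SPM alone, so its place near 1 was largely built into its selection.

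The wider pathway was read from a list of 109 other lipid genes in 8 roles, of which 108 were found by symbol and 61 were tested. With P-IV.I set against P-IV.II, 5 of them were higher, 6 lower and 50 did not pass, beside 6.51% higher and 3.11% lower of all tested genes, with a median of 0.04 beside 0.19 over all genes. Lower in P-IV.I were the lipase genes Pla2g7, which encodes the acetylhydrolase of platelet-activating factor, at 27.5 ± 11.0 FPKM in P-IV.I and 223 ± 26.5 FPKM in P-IV.II (-3.03 ± 0.31, adjusted p = 0.00173), and Pla2g15, the lysosomal phospholipase, at 11.0 ± 4.43 FPKM in P-IV.I and 42.6 ± 3.39 FPKM in P-IV.II (-1.91 ± 0.36, adjusted p = 0.0163). Of 10 fatty acid binding, uptake and activation genes 3 were lower and 1 higher, the lower ones being the carrier gene Fabp7, at -2.77 ± 0.37 (0.00339), the scavenger receptor and fatty acid translocase gene Cd36, at -1.94 ± 0.45 (0.0351), and the acyl-CoA binding protein gene Dbi, at -1.61 ± 0.40 (0.0428). The lipid receptor gene Trem2 was lower at -1.16 ± 0.30 (0.0484), with 0.165 ± 0.113 FPKM in P-IV.I and 1.63 ± 0.488 FPKM in P-IV.II. Dgat2, which encodes the enzyme of the last step of triglyceride synthesis, was higher, at 9.75 ± 5.85 FPKM in P-IV.I and 0.630 ± 0.0229 FPKM in P-IV.II (2.61 ± 0.38, 0.00522), as were the sorting receptor gene Sorl1 (1.73 ± 0.30, 0.011) and the nuclear receptor coactivator gene Ncoa1 (1.44 ± 0.31, 0.0262). Soat2, of cholesterol esterification, also passed as higher (0.78 ± 0.19, 0.0437) at levels under 1 FPKM.

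In PcDC2 minus SPM, 8 of the 61 other lipid genes were higher and 18 lower, and 35 did not pass, beside 11.2% higher and 8.46% lower of all tested genes, with a median of -0.35 beside 0.13 over all genes. All 3 passing lipase genes were lower in PcDC2, Pla2g7 at -7.27 ± 0.31 (adjusted p = 1.31e-05), Pla2g15 at -4.94 ± 0.36 (8.13e-05) and the diacylglycerol lipase gene Daglb at -2.87 ± 0.42 (0.00212). Of 10 fatty acid binding and uptake genes 4 were lower and 1 higher, and of 6 lipoprotein and scavenger receptor genes 3 were lower and 1 higher. Cd36 had 2.58 ± 1.66 FPKM in PcDC2 and 309 ± 116 FPKM in SPM (-6.46 ± 0.45), Fabp7 changed by -5.12 ± 0.37 and Dbi by -1.69 ± 0.40. Msr1, the class A scavenger receptor gene, changed by -5.53 ± 0.33, Trem2 by -3.35 ± 0.30 and Lrp1, an apolipoprotein E receptor gene, by -2.08 ± 0.56. Of 9 nuclear receptor and regulator genes 4 were lower and 2 higher. Pparg (PPAR gamma) changed by -2.15 ± 0.27 (0.000942), Rxra by -1.82 ± 0.49 (0.0355) and Nr1h3 (LXR alpha) by -1.71 ± 0.28 (0.004). Of 13 efflux and export genes 3 were lower and 10 did not pass: Abcg3, Abca9 and Npc2 changed by -1.78 ± 0.29, -1.63 ± 0.25 and -1.11 ± 0.31. Of 11 droplet coat and storage genes 3 were higher and 1 lower, with Hilpda at 57.5 ± 28.6 FPKM in PcDC2 and 5.27 ± 3.36 FPKM in SPM (3.24 ± 0.93, 0.0434), Dgat2 at 2.71 ± 0.38 (0.00175) and Soat2 at 0.99 ± 0.19 (0.00887). Clu, the gene of apolipoprotein J, had 1.76 ± 0.930 FPKM in PcDC2, was listed at 0 in SPM and passed as higher (adjusted p = 0.00641). Clu and Soat2 reached 1 FPKM in the PcDC2 libraries alone and entered the test through them, so a higher level in PcDC2 was built into their selection here and below.

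**Figure D4:**
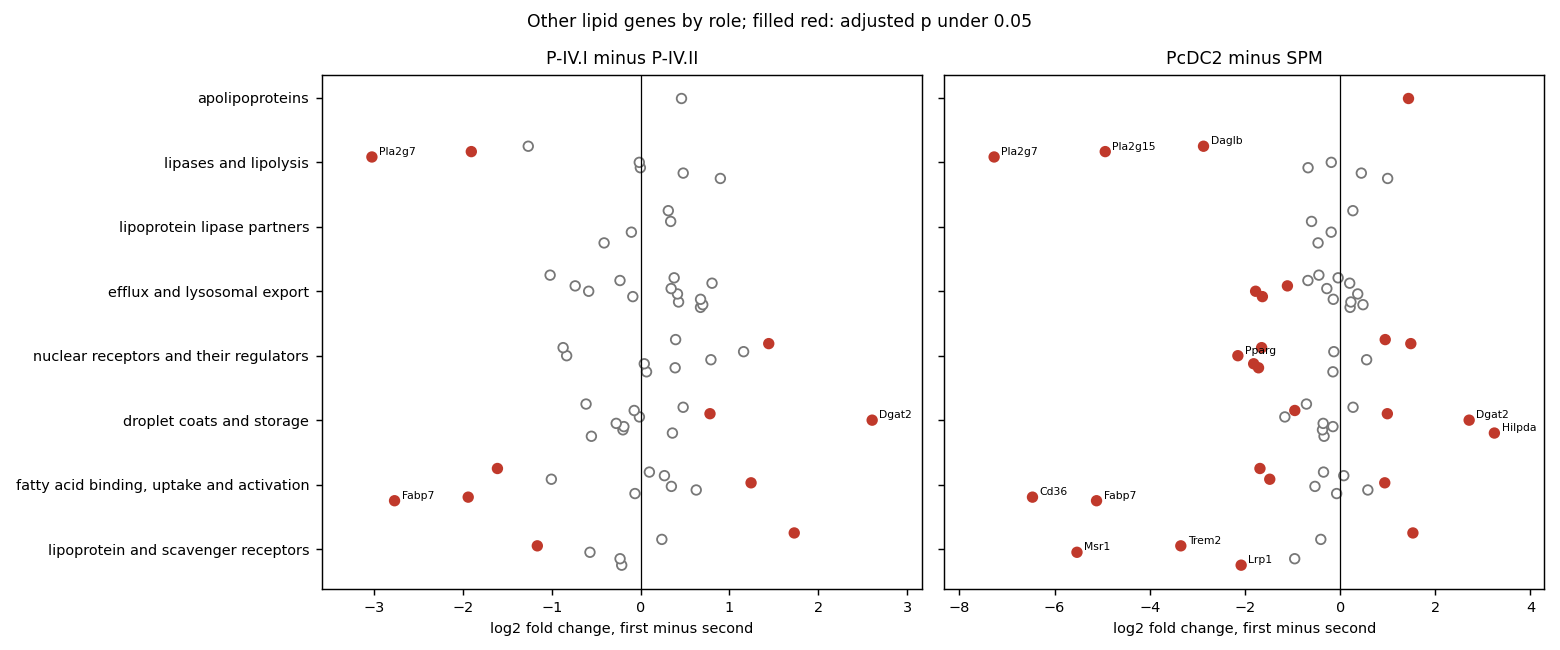
Log2 fold change on the log2(FPKM + 1) scale of the 61 tested genes of the wider lipid list, by role, for P-IV.I against P-IV.II (left) and for PcDC2 against SPM (right), with 1 point per gene and filled red points for an adjusted p under 0.05. Pla2g7 lay at -3.03 on the left and -7.27 on the right, and Dgat2 at 2.61 on the left and 2.71 on the right.

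Against SPM, P-IV.II had 3 of these 61 genes lower and 58 that did not pass by limma, beside 1.14% of all tested genes passing, with Msr1 at -4.26 ± 0.33 (adjusted p = 0.00138), Fabp7 at -2.33 ± 0.37 (0.0304) and Trem2 at -2.02 ± 0.30 (0.0247), with a median of -0.21 beside -0.06 over all genes. Msr1 had 2.06 ± 0.546 FPKM in P-IV.II and 58.7 ± 19.3 FPKM in SPM. P-IV.I against SPM had 2 higher and 7 lower, beside 6.41% and 4.58% of all tested genes, the higher ones being Dgat2 at 2.58 ± 0.38 and the acyl-CoA synthetase gene Slc27a3 at 2.14 ± 0.28 (0.00235), and the lower ones being Fabp7 at -5.10 ± 0.37, Msr1 at -4.83 ± 0.33, Pla2g7 at -3.19 ± 0.31, Trem2 at -3.18 ± 0.30, Pla2g15 at -2.95 ± 0.36, Cd36 at -2.85 ± 0.45 and Abca9 at -0.98 ± 0.25 (0.0441). Against PcDC2, P-IV.I had 3 higher and 58 that did not pass, beside 0.732% of all tested genes passing, with Pla2g7 at 4.08 ± 0.31 (0.00109), Cd36 at 3.62 ± 0.45 (0.0138) and Pparg at 1.65 ± 0.27 (0.0421). Pparg averaged 10.5 ± 2.78 FPKM in P-IV.I and 2.62 ± 0.0228 FPKM in PcDC2. P-IV.II against PcDC2 had 15 higher and 10 lower, beside 7.52% and 13.2% of all tested genes, with a median of 0.19 beside -0.17 over all genes. Among the higher were the lipase genes Pla2g7 at 7.10 ± 0.31, Pla2g15 at 3.89 ± 0.36 and Daglb at 2.97 ± 0.42, and the uptake and carrier genes Cd36 at 5.56 ± 0.45, Fabp7 at 2.79 ± 0.37 and Dbi at 2.04 ± 0.40. Pparg at 2.48 ± 0.27, its coactivator gene Ppargc1b at 2.01 ± 0.35, Abcg3 at 1.72 ± 0.29, Trem2 at 1.33 ± 0.30, Msr1 at 1.27 ± 0.33 and the acyltransferase gene Agpat2 at 1.02 ± 0.28 were higher too. Among the lower were Dgat2 at -2.74 ± 0.38, Sorl1 at -2.16 ± 0.30, Ncoa1 at -1.99 ± 0.31, Clu at -1.42 ± 0.26, Soat2 at -1.33 ± 0.19 and the phospholipid transporter gene Abca3 at -1.21 ± 0.27.

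For 9 of the 10 genes, the genes with the most similar profile were sought among 9560 expressed genes by the root mean square difference of centred log2(FPKM + 1) values over the 9 libraries, as a description. Fcna (0.79) and C4b (0.83) came closest to Apoe, whose own spread was 2.93. Fcna had 1.38 and 2.04 FPKM in P-IV.I, 12.9 and 9.90 FPKM in P-IV.II, 0.112 and 3.92 FPKM in PcDC2, 216 and 210.4 FPKM in SPM, and 0 in PcDC1, with the same high PcDC2 library as Apoe. Pilra (0.29) and Capg (0.37) came closest to Lpl with its spread of 2.95, and Prtn3 (0.27) and Trem2 (0.30) to Apoc2 with its spread of 1.29. The nearest genes to Plin2 were Aoah (0.17) and Aifm2 (0.19), to Abca1 Sh3bp5 (0.14) and Plppr3 (0.20), to Lipa Mtfr1 (0.15) and Tor3a (0.15), to Abcg1 Nutf2 (0.15) and Ccdc71l (0.18) and to Fabp4 Nktr (0.17) and Rlf (0.20). The spreads of these genes were 0.916 for Plin2, 0.678 for Abca1, 0.391 for Lipa, 0.54 for Abcg1 and 0.461 for Fabp4. A small difference says less for a gene of small spread. For Fabp5, with a spread of 1.075, the nearest genes were Cd80 (0.60) and Ccdc186 (0.63). Among the 10 genes themselves Apoe and Apoc2 differed by 1.76 on this measure, Lpl and Pltp by 1.57, and Apoe and Fabp5, the least similar pair, by 3.55.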

How the data were processed

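The deposited table holds FPKM values for 24532 genes in 9 libraries, which the authors call normalized. Per the submitters' processing notes, the tools were HISAT2 2.1.0, StringTie 1.3.4d, Cufflinks and bcl2fastq 1.8.4, on build mm10. A SMARTer low-input cDNA kit and a NovaSeq were used, per the labels. Any filter or further scaling is not given in the sources used here. FPKM depends on the transcript models and on the share of the library taken by abundant genes. A search for single-read steps found 1 common ratio (tolerance 1%) in only 32 of 643 genes with low values (4.98%). Whole reads could therefore not be recovered, the depth is unknown, and no count-based interval is given.

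Values were analysed as log2(FPKM + 1). Genes reaching 1 FPKM in 2 or more libraries were kept, 10526 in all. A limma 3.58.1 model of group means over all 9 libraries was run in R 4.3.3 (lmFit, contrasts.fit, eBayes with trend), with 4 residual degrees of freedom and 4.02 from the prior. p-values are two-sided and adjusted by Benjamini-Hochberg over all tested genes within each comparison, with a threshold of 0.05. The fit was tested on simulated data. The 10 genes, the wider lipid list and the marker lists were chosen with earlier results of these data known. All 10 genes are named in every comparison, then up to 3 passing genes per role of the wider list with the largest absolute change, and the 2 nearest genes by profile; those of Pltp are not reported here. Coordinates and promoters come from RefSeq GRCm38.p6, the coordinates of mm10. Same-numbered replicates deviated together among SPM, P-IV.II and P-IV.I but not with PcDC2, so no block was used in the main fit. Python 3.11.15 with pandas 2.3.3 made the descriptive values. Alternatives changed the pseudocount, filter, scaling, libraries in the fit, replicate block and single libraries.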

Additional observations from a re-analysis of the deposited data

Results flagged for a closer look

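The difference in Lpl within the CD11c+ CD115+ gate was not the same as that between PcDC2 and SPM, by a test of the difference itself. P-IV.I minus P-IV.II was -2.32 and PcDC2 minus SPM was -5.76, a difference of 3.44 ± 0.37 on the log2 scale (adjusted p = 0.00749 by limma), which passed in all 18 alternatives run. For Apoc2 the same test gave a difference of 3.02 ± 0.51 (adjusted p = 0.0415), between -0.33 inside the gate and -3.35 outside it. This call was lost in 9 of 18 alternatives. Apoc2 was listed at 0 in PcDC2, so the size of its difference depends on the pseudocount and was 1.42 with a pseudocount of 5. Apoc2 also would not have been tested without its SPM libraries, so a difference from SPM was built into its selection. No group had the 4 libraries needed to look for single libraries that stand apart.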

How the results depend on the processing

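Of 1246 recomputed values of single genes, 1177 kept their side of the threshold, 52 lost and 17 gained a call, and no called value changed sign; 22 values that had not passed changed sign. In a fit on only the groups compared, the counts of the 10 genes that passed were 1 for P-IV.I against P-IV.II (3 in the fit on all libraries) and 0 in P-IV.II minus SPM (2), and the counts of all genes were 650 in the first of these (1012), 7 in the other (120) and 35 in P-IV.I minus PcDC2 (77). In P-IV.II minus SPM a pseudocount of 0.1 left 0 of the 10 genes and 53 of all genes, a filter of any value above 0 left 1 and 71, and a filter of FPKM 5 left 1 and 77. The interaction left 1 of the 10 genes under either filter (2), and quantile normalization gave 2 in P-IV.I minus PcDC2 (1). Same-numbered replicates deviated together across genes at 0.71 for P-IV.II and SPM, 0.55 for P-IV.I and SPM and 0.34 for P-IV.I and P-IV.II, but at 0.04 for PcDC2 and SPM, 0.05 for P-IV.II and PcDC2 and -0.28 for P-IV.I and PcDC2. Not every pair was over 0.1, so no pairing was taken. A block on the number gave calls to Apoe in P-IV.II minus SPM (adjusted p = 0.0488) and in the interaction (0.0408), to Lipa in PcDC2 minus SPM (0.019) and to Apoc2 in P-IV.II minus PcDC2 (0.0461). The block moved the counts of all genes to 1615 for P-IV.I against P-IV.II, 193 in P-IV.II minus SPM and 143 in P-IV.I minus PcDC2, and those of the wider lipid list to 37 (31). Leaving out 1 library of the replicated groups at a time, the 10 genes that passed numbered 1 to 3 for P-IV.I against P-IV.II, 6 to 8 in PcDC2 minus SPM, 0 to 1 in P-IV.II minus SPM, 5 to 6 in P-IV.I minus SPM, 1 in P-IV.I minus PcDC2, 3 to 5 in P-IV.II minus PcDC2 and 1 to 2 in the interaction. The counts of all genes were 366 to 1010 for P-IV.I against P-IV.II, 1089 to 2035 for PcDC2 minus SPM, 24 to 63 in P-IV.II minus SPM, 554 to 1123 in P-IV.I minus SPM, 15 to 54 in P-IV.I minus PcDC2 and 924 to 2213 in P-IV.II minus PcDC2, and the wider lipid list had 19 to 31. A fit without PcDC1, added after the data were seen, gave 2 of the 10 genes in P-IV.II minus SPM, 32 of the wider lipid list, and 2075 of all genes for PcDC2 minus SPM, 124 for P-IV.II minus SPM, 1152 for P-IV.I minus SPM, and 75 for P-IV.I minus PcDC2. Where a library was left out, the lone remaining one was assumed to vary like the other groups. The cause of the other changes was not tested. With 2 libraries per group and unknown depth, low levels such as those of Abca1, Apoc2 and Fabp4 are the least precise.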

Other observations

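PcDC1, with 1 library and no test, combined high levels of some lipid genes with low levels of others. Cd36 had 136 FPKM in PcDC1, against 3.75 and 1.40 FPKM in PcDC2. Dbi had 243 FPKM in PcDC1, against 34.2 and 44.8 FPKM in PcDC2, and Plin2 had 181 FPKM in PcDC1, against 74.2 and 78.7 FPKM in PcDC2. PcDC1 had 2.41 FPKM of Pltp and 0.0699 FPKM of Lpl, the lowest of any library for both, and was listed at 0 for Apoc2, Abca1 and Fabp4. Of its 12 macrophage markers 5 reached 1 FPKM and 6 were listed at 0, with a sum of 268 FPKM in PcDC1, against 255 and 320 FPKM in PcDC2. Most of each sum was Ccr2, at 260 FPKM in PcDC1 and at 205 and 234 FPKM in PcDC2.

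Hilpda, the gene of a lipid droplet protein, varied within P-IV.II, with 96.0 FPKM in replicate 1 and 9.16 FPKM in replicate 2. Its other values were 34.5 and 44.5 FPKM in P-IV.I, 37.3 and 77.7 FPKM in PcDC2, 7.65 and 2.90 FPKM in SPM and 12.5 FPKM in PcDC1. It was singled out after its values were seen, as a gene whose P-IV.II libraries stand on either side of the P-IV.I range.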
